A study of Mus musculus with 64 samples.

Results

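The control testes of the Morc1 line were followed from P10.5 to P14.5 (P for postnatal day), and the question of the comparison was which transcripts rise and fall as the first germ cells of an unaffected testis move through meiosis. The comparison held 6 of the 64 samples of the series, or 6 of its 47 RNA-Seq libraries. All were of whole testis, chosen by age and genotype in the sample labels, without libraries labelled preliminary. At P14.5 the 3 libraries were of Morc1tg/+ mice. At P10.5 they were of 1 Morc1+/+ mouse (replicate 1) and of Morc1tg/+ mice (replicates 2 and 3), so the genotypes of the ages were not matched. The tg allele is a tyrosinase transgene that landed in Morc1 on the FVB/N background and removed exons 2 to 4, and Morc1tg/+ mice, which keep a working copy of the gene, served the study as controls. Each library was made from 1 mouse. The 2 P10.5 control libraries labelled preliminary entered 1 alternative and the comparison with sorted germ cells. Their labels do not say whether they came from other mice than the main libraries. For each gene the files gave raw read counts and RPKM, which are reads per kilobase of exon scaled to the mapped reads of the library. Reads counted on genes numbered 25148153 to 28750656 in the P10.5 libraries and 23529706 to 27325926 in the P14.5 libraries.

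Spermatogenesis in the young mouse runs as a synchronous wave. Spermatogonia divide by mitosis, enter meiosis under retinoic acid, copy their DNA, then pair and recombine their chromosomes along a protein axis through leptotene, zygotene and pachytene. Haploid spermatids form only after the meiotic divisions. Around the germ cells, Sertoli cells stop dividing and close the blood-testis barrier, while in the interstitium fetal Leydig cells give way to adult ones. Whole testis RNA is a mixture of all of these, so that fewer cells of a type and less RNA per cell cannot be told apart in any value given here.

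Of 15395 genes tested with edgeR's quasi-likelihood test, 4564 (29.6%) were higher and 4494 (29.2%) lower at P14.5 at a Benjamini-Hochberg adjusted p under 0.05, so that 58.8% changed. The number at least 2-fold higher was 1181 (7.67%), and the number at least 2-fold lower was 681 (4.42%). In 10214 genes (66.3%) the RPKM values of the ages did not overlap. The median log2 fold change over all genes tested was 0.00313. The share of counted reads that fell on the genes at least 2-fold higher was 1.11, 1.18 and 1.12% in the P10.5 libraries and 3.53, 3.00 and 3.96% in P14.5 replicates 1, 2 and 3. On the genes at least 2-fold lower it was 2.37 to 2.66% at P10.5 and 0.928 to 1.13% at P14.5.

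Some libraries stood apart within their age. P14.5 replicate 2 was the lowest of the 3 P14.5 libraries for nearly every late meiotic gene given below, and so lay nearest to P10.5. P14.5 replicate 1 was low in several genes of steroid synthesis and high in macrophage genes. Of the P10.5 libraries, Morc1tg/+ replicate 2 had the least haemoglobin and keratin RNA. The counts of each replicate pair differed by more than sampling noise. In each set of values below, the P10.5 libraries come in the order Morc1+/+ replicate 1, Morc1tg/+ replicate 2 and Morc1tg/+ replicate 3, and the P14.5 libraries in the order replicate 1, 2 and 3. Fold changes with a standard error (SE) are fitted values on the log2 scale of the counts, and levels are RPKM.

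Morc1 itself, a gene of the male germ line, was at 10.2, 6.29 and 6.46 RPKM at P10.5 and at 8.28, 7.73 and 8.77 RPKM at P14.5. The Morc1+/+ mouse had the highest level and the ages overlapped. The log2 change of Morc1 was 0.10 (SE 0.16) with an adjusted p of 0.616, and without the Morc1+/+ library Morc1 was called higher at P14.5. Tyr, the transgene's tyrosinase, had no read in the Morc1+/+ library, stood at 0.595 and 0.699 RPKM in the Morc1tg/+ mice of P10.5 and reached 2.38, 1.67 and 2.83 RPKM at P14.5. Both genes went with the genotype labels of these libraries. Tyr rose even among the Morc1tg/+ mice, by values that did not overlap. In edgeR without the Morc1+/+ library its log2 change was 1.81 (adjusted p = 3.04e-04). The call over all 6 libraries (edgeR adjusted p = 0.00708) was lost with DESeq2 on the same libraries (adjusted p = 0.201).

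Meiotic genes of every stage up to pachytene were higher at P14.5. All 17 tested genes of the chromosome axis and synaptonemal complex rose, where 29.6% of all genes tested did. So did 22 of 24 genes of recombination, all 5 regulators of meiotic entry and all 13 meiotic transcription regulators. Their median log2 fold changes were 1.55, 1.12, 1.31 and 1.69, beside 0.00313 over all genes tested. Among 24 genes of pachytene spermatocytes, 21 passed the filter on low counts and 19 of those rose, with a median of 2.37. No tested gene of these 5 lists fell. Lists given here and below share members, so their counts are not separate. For instance, Mybl1, Sox30 and Tbpl1 are in the lists of pachytene genes and of transcription regulators, and Mybl1 is also in that of the piRNA pathway.

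**Figure D1:**
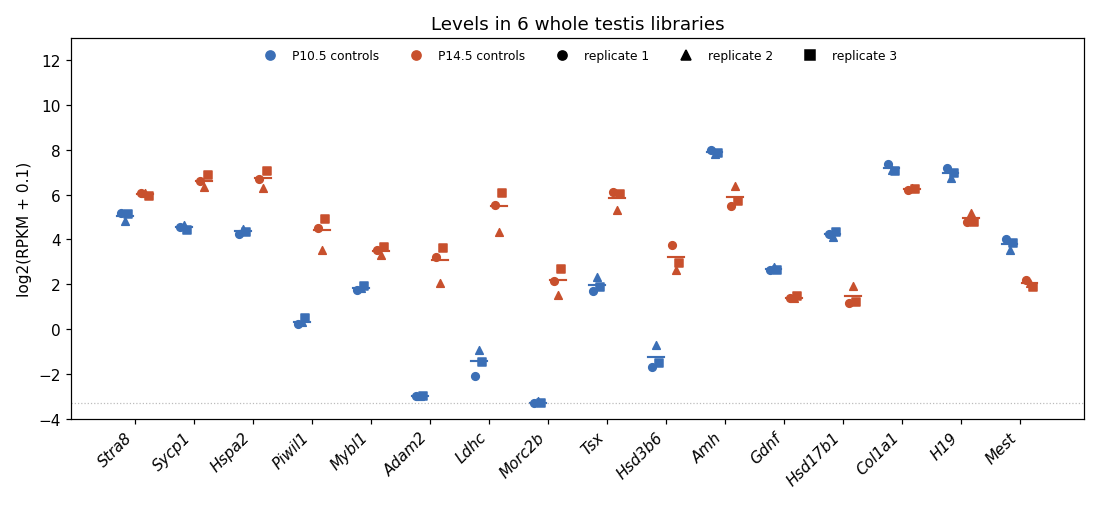
Levels of 16 genes in the 6 control libraries, as log2(RPKM + 0.1) on the vertical axis, with 1 point per library, a bar at the mean of each age and a dotted line where no read was found. Blue P10.5 and red P14.5 points do not overlap for any gene shown, but the genes were picked for display. Some are from the largest changes, whose rule asked for separate ages, and Star and Cyp17a1, whose ages overlapped, are not drawn. Of all genes tested 66.3% did not overlap. The red triangle of P14.5 replicate 2 lies lowest for Piwil1, Adam2, Ldhc and Morc2b.

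Entry into meiosis is driven by Stra8, a target of retinoic acid. Stra8 was at 36.4, 28.3 and 35.1 RPKM at P10.5 and at 67.3, 66.8 and 61.6 RPKM at P14.5. The gene was thus well expressed at the younger age and rose by 0.97 (SE 0.08) on the log2 scale (adjusted p = 9.24e-06), with no overlap. Gm1564, now named Meioc, and its partner Ythdc2, an RNA helicase, keep germ cells on the meiotic programme after entry. Gm1564 went from 9.90 to 10.8 RPKM at P10.5 to 33.3 to 40.8 RPKM at P14.5, and Ythdc2 from 6.01 ± 0.538 to 14.9 ± 1.67 RPKM (SD, n = 3 each). Ccnb3, a cyclin of meiotic cells, rose most among the 5 regulators, with a mean of 2.15 ± 0.182 RPKM (SD, n = 3) at P10.5 and 11.1 ± 0.924 RPKM (SD, n = 3) at P14.5.

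Sycp3 builds the lateral element along which sister chromatids are arrayed, and Sycp1 is the zip between the lateral elements. Sycp3 was at 23.7, 24.8 and 24.0 RPKM at P10.5 and at 137, 119.9 and 168 RPKM at P14.5. Sycp1 was at 23.1, 24.8 and 21.5 RPKM at P10.5 and at 98.2, 79.9 and 118 RPKM at P14.5. In both genes the P10.5 libraries lay close together while the P14.5 libraries spread, with replicate 2 lowest and replicate 3 highest. The fitted log2 changes were 2.55 (SE 0.12) for Sycp3 and 2.09 (SE 0.13) for Sycp1, with adjusted p-values of 7.84e-07 and 2.01e-06. Hormad1, which marks axes that have not yet synapsed, rose 7.22-fold in mean RPKM, from 15.6 ± 0.71 to 113 ± 22.8 (SD, n = 3 each). The smallest rises of the list were those of Rec8, the meiotic cohesin already loaded before recombination, with a log2 change of 0.70 (SE 0.09), and of Fkbp6, with 0.53 (SE 0.04).

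Recombination genes differed among themselves more than axis genes. Spo11, whose product cuts the DNA to start recombination, was at 0.742, 0.684 and 0.698 RPKM at P10.5 and at 5.81, 4.41 and 7.38 RPKM at P14.5. Dmc1, the recombinase of meiosis, was at 10.4, 8.81 and 8.88 RPKM and then at 40.0, 36.1 and 44.3 RPKM. Neither gene's ages overlapped, and Spo11 changed more, by 3.04 (SE 0.20) on the log2 scale, than Dmc1 did, by 2.09 (SE 0.10). The largest changes of the list were those of 4930528F23Rik, now named Meiob, at 4.38 (SE 0.21), and of the crossover helicase Hfm1, at 3.73 (SE 0.16). Both are genes of later steps. Msh4, also of a later step, changed as much as Spo11, by 3.04 (SE 0.15). Prdm9, which places the breaks, rose by 1.61 (SE 0.08), whereas Mei4, which works with Spo11, rose by only 0.34 (SE 0.12). Trip13 and 2410076I21Rik, now named Rec114, did not pass the test, at 0.03 and 0.04.

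Pachytene genes started from very different levels. Ldhc, the lactate dehydrogenase of spermatocytes and sperm, was at 0.136, 0.425 and 0.257 RPKM at P10.5 and at 46.0, 20.2 and 67.3 RPKM at P14.5. Its log2 change was 7.32 (SE 0.59) with an adjusted p of 6.95e-06. P14.5 replicate 2 again had the lowest of the P14.5 values, far above every P10.5 value. Adam2, which encodes fertilin beta of the sperm surface, was at 0.0241 to 0.0277 RPKM at P10.5 and at 9.05, 4.09 and 12.2 RPKM at P14.5. Hspa2, a chaperone of the synaptonemal complex, started at 19.0 to 22.2 RPKM and reached 105, 79.6 and 133 RPKM, so it was well expressed at P10.5 and still did not overlap. Ybx2, which holds mRNAs for later translation, rose 10.9-fold in mean RPKM, and Clgn, the chaperone of sperm membrane proteins, rose 9.04-fold.

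Not every pachytene marker was up. Insl6 and Ccna1, a cyclin needed for the first meiotic division, did not pass the test, with log2 changes of 0.14 and 0.49. Pgk2, the autosomal phosphoglycerate kinase of late spermatocytes, was too low to be tested, at 0.0194 to 0.088 RPKM at P10.5 and 0.12 to 0.391 RPKM at P14.5. Hist1h1t, the linker histone of pachytene cells, was also below the filter, at 0.28 to 0.341 RPKM at P14.5. Of the 7 genes in the files from the list of germ line histone variants only Hist1h2ba and H2afx could be tested. They rose by 3.42 and 0.54 on the log2 scale. These whole testis libraries were made from poly(A) RNA, whereas those of sorted P10.5 germ cells were depleted of ribosomal RNA. The summed level of the 7 genes was 843 to 1214 RPKM in the sorted cells and 33.8 to 41.1 RPKM in P10.5 whole testis. Low histone levels here may therefore hold a difference between kits, which was not tested.

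Spermatid genes remained low. Of 16 in the list, 8 passed the filter and 2 of them rose, a share near the 29.6% of all genes tested. Acr, the acrosin of the acrosome, was at 0.103, 0.102 and 0.117 RPKM at P10.5 and at 2.23, 1.04 and 3.10 RPKM at P14.5. Spaca1, an acrosome membrane protein, went from 0.659 ± 0.192 to 2.50 ± 0.226 RPKM (SD, n = 3 each). Acr is known to be transcribed from pachytene on. The ages did not overlap for either gene. The summed level of the 16 genes was 6.85 to 8.20 RPKM at P10.5 and 11.3 to 12.4 RPKM at P14.5, and Prm2, Catsper1 and Smcp had no read in any of the 6 libraries.

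**Figure D2:**
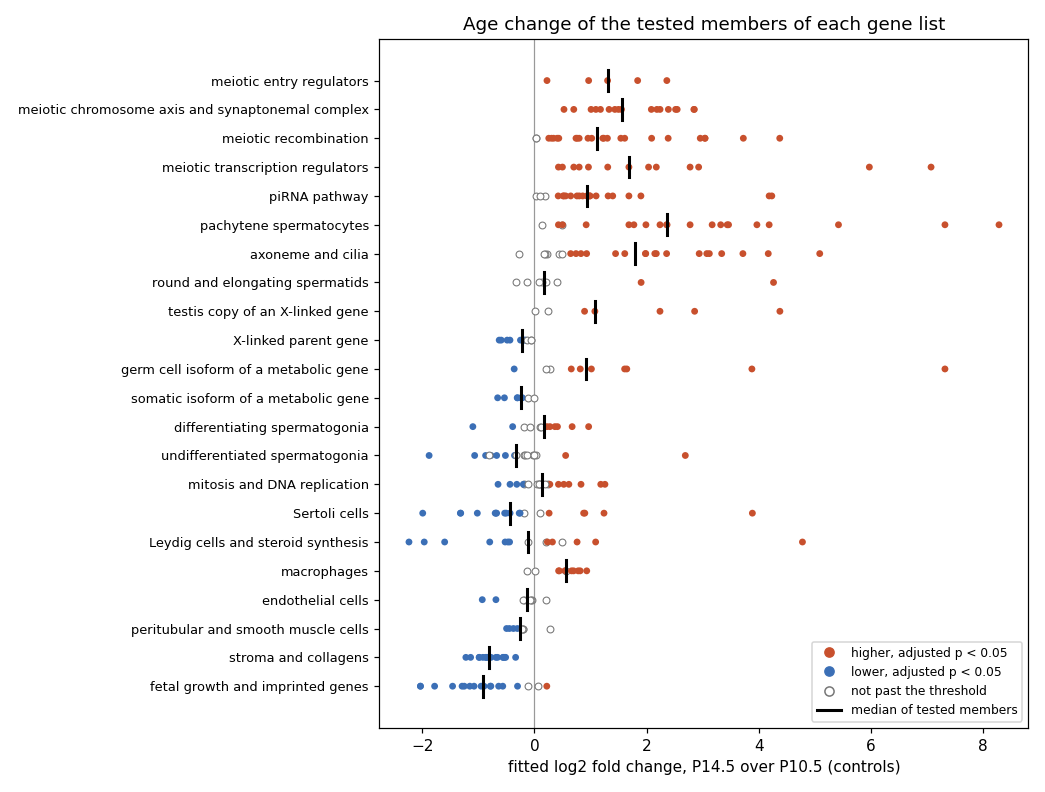
Fitted log2 fold change from P10.5 to P14.5 in controls (horizontal axis) of the tested members of 22 gene lists, 1 point per gene, with red and blue points past an adjusted p of 0.05, open points not past it and a bar at the list's median. Lists of meiosis lie to the right of 0 up to the pachytene median of 2.37, while stroma and fetal growth genes lie to the left, at medians of -0.80 and -0.92.

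The regulators that switch on the meiotic programme were among the genes that rose. Mybl1 encodes A-MYB, which switches on pachytene genes and piRNA precursors. It was at 3.28, 3.48 and 3.64 RPKM at P10.5 and at 11.5, 9.64 and 12.5 RPKM at P14.5, a log2 change of 1.69 (SE 0.10) with an adjusted p of 1.75e-06. Rfx4, of the family of factors that run cilia genes, was at 0.0175 to 0.0434 RPKM at P10.5 and at 1.26 to 2.61 RPKM at P14.5. Kctd19, known as a partner of Zfp541 in pachytene cells, changed most, from 0.15 to 0.211 RPKM to 17.7 to 33.3 RPKM (log2 7.08, SE 0.31). Sox30, a factor of the late meiotic programme, rose 6.88-fold in mean RPKM, while Taf7l rose only 1.63-fold from the high level of 80.6 ± 2.82 RPKM (SD, n = 3).

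The piRNA pathway silences transposons in germ cells and later makes the abundant pachytene piRNAs. Of its 23 genes 20 rose, beside 29.6% of all genes tested, with a median log2 change of 0.94. Piwil1 (MIWI), the PIWI protein of pachytene piRNAs, was at 1.07, 1.13 and 1.28 RPKM at P10.5 and at 22.6, 11.4 and 29.6 RPKM at P14.5. Piwil2 (MILI), which is expressed in earlier cells too, was at 31.3, 35.6 and 34.0 RPKM and then at 74.4, 64.1 and 78.8 RPKM. Both rose without overlap, Piwil1 by 4.19 (SE 0.33) and Piwil2 by 1.10 (SE 0.08) on the log2 scale. Piwil4 (MIWI2), the PIWI protein of fetal germ cells, did not pass the test at 0.18. Tdrd6, of the chromatoid body, rose 19.1-fold but from a mean of 0.059 ± 0.0111 RPKM (SD, n = 3).

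The axoneme is the microtubule core of cilia and of the sperm tail. Of 26 axoneme and cilia genes, 24 passed the filter and 18 rose, beside 29.6% of all genes tested, with a median log2 change of 1.80. Rsph1, of the radial spokes, was at 4.96, 4.83 and 5.30 RPKM at P10.5 and at 90.2, 62.5 and 120.0 RPKM at P14.5. Spag17, of the central pair, was at 0.0179 to 0.039 RPKM at P10.5 and at 0.46 to 1.46 RPKM at P14.5. Neither overlapped between the ages, and their log2 changes were 4.17 (SE 0.23) and 5.09 (SE 0.52). Foxj1, a master regulator of motile cilia in other tissues, had a log2 change of 0.45 and did not pass the test, whereas Rfx2 rose by 2.17.

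Several genes of the X chromosome have autosomal copies that germ cells use, and metabolic enzymes have isoforms of their own in these cells. Of 10 autosomal copies, 7 were tested and 5 rose (median log2 change 1.08), beside 29.6% of all genes tested. Of their 10 X-linked parents 7 fell and none rose (median -0.21). Of all X-linked genes tested 44.4% fell, with a median of -0.17, so the median of the parents lay close to that of the X chromosome. Cetn1 was at 0.198, 0.22 and 0.169 RPKM at P10.5 and at 4.34, 1.89 and 6.35 RPKM at P14.5, while its X-linked parent Cetn2 went from 25.7 to 27.1 RPKM to 21.9 to 23.2 RPKM. Pdha2, the germ cell subunit of pyruvate dehydrogenase, rose 4.75-fold, and its parent Pdha1 fell by 0.44 (SE 0.06) on the log2 scale. Rpl10l rose by 1.08 and Rpl10 fell by 0.59, but the copies are close in sequence, so their reads may have been lost or shared. Of 10 germ cell isoforms of metabolic genes 7 rose and 1 fell, beside 29.6% and 29.2% of all genes tested. Of 9 somatic isoforms 7 fell. Besides Ldhc the germ cell isoforms that rose were led by Cox8c, a subunit of cytochrome oxidase. Cox8c went from 2.58 to 3.96 RPKM to 26.0 to 68.6 RPKM, whereas the somatic Ldha fell by 0.30 (SE 0.06) and Cox8a by 0.24 (SE 0.06).

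Spermatogonial genes divided. Of 18 genes of undifferentiated spermatogonia 2 rose, 8 fell, where 29.2% of all genes tested did, and 8 did not pass the test (median log2 change -0.33). Gfra1, the receptor that binds GDNF on stem cells, was at 9.00, 8.43 and 9.52 RPKM at P10.5 and at 5.06, 6.23 and 4.52 RPKM at P14.5. Lhx1 and Bcl6b, both induced by GDNF, fell 3.67-fold and 2.09-fold in mean RPKM. The levels of none of the 3 overlapped between the ages. Utf1, a chromatin protein of early spermatogonia, went the other way, from 1.29, 1.52 and 1.46 RPKM to 10.2, 7.52 and 10.1 RPKM, a log2 change of 2.69 (SE 0.16) with an adjusted p of 1.83e-06. Of 12 genes of differentiating spermatogonia 6 rose and 2 fell, beside 29.6% and 29.2% of all genes tested. The falls were of Ccnd2, cyclin D2 of dividing spermatogonia, from 40.8 ± 1.32 to 19.2 ± 1.64 RPKM (SD, n = 3 each), and of Dmrt1, which holds spermatogonia in mitosis, by 0.39 on the log2 scale. Kit, the receptor of differentiating spermatogonia, did not pass the test at 0.10.

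The general germ cell genes rose in 9 of 10 cases (median 0.80), Dnd1 being the exception at -0.28. The 20 genes of mitosis and DNA replication had no common direction, with 8 up and 4 down, beside 29.6% and 29.2% of all genes tested, and a median of 0.14. Bub1, of the spindle checkpoint, rose by 1.26 (SE 0.07), and Tyms, which makes thymidylate for DNA synthesis, fell by 0.65 (SE 0.10).

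Sertoli genes fell in 12 of 19 cases and rose in 5, beside 29.2% and 29.6% of all genes tested, with a median log2 change of -0.43. Amh, the anti-Mullerian hormone of immature Sertoli cells, was at 257, 225 and 233 RPKM at P10.5 and at 45.2, 83.3 and 51.7 RPKM at P14.5. The fall of 1.99 (SE 0.18) on the log2 scale had an adjusted p of 1.48e-05. P14.5 replicate 2 kept the most Amh and none of the values overlapped. Gdnf, the niche factor of stem spermatogonia, was at 6.13, 6.73 and 6.14 RPKM and then at 2.52, 2.48 and 2.65 RPKM. Gata4 and Dhh, the transcription factor and the hedgehog ligand of Sertoli cells, fell by 1.31 (SE 0.07) and 1.02 (SE 0.07).

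The 5 Sertoli genes that rose were Tsx, Gata1, Defb19, Trf and Cldn11. Tsx, an X-linked transcript of the testis, was at 3.17, 4.85 and 3.52 RPKM at P10.5 and at 68.4, 39.7 and 64.6 RPKM at P14.5. Gata1, a factor of maturing Sertoli cells, was at 16.1, 19.1 and 19.0 RPKM and then at 44.4, 42.1 and 42.2 RPKM. Both rose without overlap, Tsx by 3.89 (SE 0.23) and Gata1 by 1.24 (SE 0.07). Clu, among the most abundant Sertoli transcripts, stood at 2286 ± 168 RPKM (SD, n = 3) at P10.5 and 2469 ± 161 RPKM (SD, n = 3) at P14.5 and did not pass the test. Of 12 junction genes of the blood-testis barrier 3 rose and 5 fell, beside 29.6% and 29.2% of all genes tested, with a median of -0.09. Gja1 (connexin 43) fell by 0.95 (SE 0.06), while Espn, the actin bundler of Sertoli junctions, and Cldn3 rose by 0.67 (SE 0.09) and 0.82.

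Leydig and steroid genes moved both ways. Of 16 genes 15 were tested, 5 rose and 7 fell, beside 29.6% and 29.2% of all genes tested. Hsd3b6, the 3-beta-hydroxysteroid dehydrogenase of adult Leydig cells, was at 0.205, 0.509 and 0.253 RPKM at P10.5 and at 13.5, 6.03 and 7.68 RPKM at P14.5, a log2 change of 4.78 (SE 0.39). Its close paralog Hsd3b1, shared with fetal Leydig cells, fell by 0.80 (SE 0.16), and reads that match both genes would not have been counted. Thbs2, a marker of fetal Leydig cells, fell from 12.6 ± 1.88 to 3.24 ± 0.476 RPKM (SD, n = 3 each). Hsd17b3, which makes testosterone from androstenedione, was at 60.7, 39.4 and 55.6 RPKM and then at 11.6, 12.5 and 8.93 RPKM, a fall of 2.24 (SE 0.16) with no overlap. Star, which brings cholesterol into mitochondria, was at 16.1, 9.97 and 20.2 RPKM at P10.5 and at 12.0, 38.5 and 48.0 RPKM at P14.5. Cyp17a1, which makes androgens from progestogens, was at 49.2, 28.8 and 58.3 RPKM and then at 11.6, 82.1 and 64.0 RPKM. For both, P14.5 replicate 1 lay among or below the P10.5 libraries and the other P14.5 libraries above all of them, so that the ages overlapped through replicate 1 alone. The call of Star, at 1.09 (SE 0.42) with an adjusted p of 0.0452, was lost under 7 alternatives, at adjusted p-values from 0.0833 to 0.19. The count of risers in the list was 3 with DESeq2 and with limma and without P10.5 replicate 1 or 3, 2 without P10.5 replicate 2 or P14.5 replicate 3, and 1 without P14.5 replicate 2.

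Connective tissue genes fell. All 16 genes of stroma and collagens were lower at P14.5, with a median log2 change of -0.80 and a range from -1.22 to -0.33. Col1a1, the main fibrillar collagen, was at 164, 136 and 133 RPKM at P10.5 and at 73.6, 79.3 and 76.6 RPKM at P14.5. Col5a2 fell most, from 15.6 ± 1.21 to 6.72 ± 0.187 RPKM (SD, n = 3 each), and Sparc least, by 0.33 (SE 0.05). Of 8 peritubular muscle genes 4 fell and none rose, and of 8 endothelial genes 2 fell, Cdh5 and Kdr, both beside 29.2% of all genes tested that fell.

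Genes of fetal growth and imprinting fell almost as a group. Of 18 genes, 15 fell and 1 rose, beside 29.2% and 29.6% of all genes tested, with a median of -0.92. H19, an imprinted noncoding RNA of fetal tissues, was at 145, 106 and 123 RPKM at P10.5 and at 27.5, 36.7 and 27.6 RPKM at P14.5. Its neighbour Igf2, the fetal growth factor, fell 2.10-fold in mean RPKM. Plagl1, a zinc finger factor that regulates imprinted genes, fell from 18.7 ± 1.76 to 4.57 ± 1.22 RPKM (SD, n = 3 each), and Mest fell from 13.9 ± 2.48 to 4.06 ± 0.426 RPKM (SD, n = 3 each). The single riser was Lin28b, by 0.22 (SE 0.08, adjusted p = 0.0413), and it was not called under 8 of the alternatives.

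Markers of cells from outside the tubule moved as follows. Of 12 macrophage genes 9 rose (median 0.56), beside 29.6% of all genes tested. Without P10.5 Morc1tg/+ replicate 2 the number was 4 of 12, near that share. The summed level of the 12 genes was 55.1 to 67.0 RPKM at P10.5 and 135, 85.5 and 82.3 RPKM at P14.5. Of 7 haemoglobin and red cell genes 4 were tested and 1 fell, beside 29.2% of all genes tested. Their summed levels were 78.6, 28.0 and 76.0 RPKM at P10.5 and 32.1 to 39.4 RPKM at P14.5. Without P10.5 Morc1tg/+ replicate 2 all 4 fell, and without either other P10.5 library or P14.5 replicate 1 none did. Of 8 epididymis genes, Cst8 and Defb42 were tested and both fell, to 2.77 ± 0.192 and 0.404 ± 0.102 RPKM (SD, n = 3 each), and the defining genes Lcn9 and Rnase10 had no read. The fat list had 3 of 7 genes tested, with 1 up and 1 down, and a summed level of 8.79 RPKM at most. The part of these cells in the results above was not tested.

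The largest changes by a fixed rank were led by genes with no or hardly any read at P10.5. 1700006A11Rik had no read at P10.5 and 9.56, 4.34 and 12.8 RPKM at P14.5, which was at least 593-fold higher when 3 reads are allowed over the P10.5 group. 1700016M24Rik, now named Mroh4, had 1 read at P10.5 against 4370 at P14.5, and Morc2b, a paralog of Morc1 that is known from meiotic cells, had 1 read against 1490. For Morc2b the ratio scaled to library size was 1616, with a 95% counting interval from 289.6 to 63869. Morc2b was at 4.34, 2.76 and 6.35 RPKM in the P14.5 libraries. Of the other genes among the 15 largest rises, Gk2 is a glycerol kinase of the testis, Spata4 a gene associated with spermatogenesis, Pbp2 a testis paralog of the phosphatidylethanolamine-binding protein and Pabpc2 a poly(A)-binding protein of germ cells. Spata4 was at 0.0293 to 0.0871 RPKM at P10.5 and at 10.9, 5.30 and 16.1 RPKM at P14.5 (log2 7.62, SE 0.64). The list also held Adam2 and Ldhc, given above, along with 1700011I03Rik, 4922502D21Rik, Scgb2b1-ps, 4833427G06Rik, Gm13817 and 4933434I20Rik.

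The largest falls ended less close to 0. Adamts16, a secreted protease, was at 2.14, 1.19 and 1.91 RPKM at P10.5 and at 0.0677, 0.0626 and 0.036 RPKM at P14.5, a fall of 4.95 (SE 0.31) on the log2 scale. Ky was at 2.75, 2.05 and 3.52 RPKM and then at 0.139, 0.17 and 0.128 RPKM. Hsd17b1, an enzyme that activates sex steroids, was at 19.0, 17.1 and 20.0 RPKM and then at 2.12, 3.72 and 2.20 RPKM. Separation of the ages was part of the rule by which these genes were named. P14.5 replicate 2 kept the most Hsd17b1. The epithelial keratins Krt8 and Krt18 fell together 10.9-fold and 9.03-fold in mean RPKM, with P10.5 Morc1tg/+ replicate 2 the lowest of its age for both. The others were Aqp12, Gsg1l, Lpcat2, Islr2, Gm5321, 1110032F04Rik, Rprm, Dsc2, Shisa6 and Sostdc1, with log2 changes from -3.92 to -2.56.

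The promoters of these genes were read because Mybl1 and the Rfx factors rose. Promoter windows were taken from mm9, from 250 bases before to 50 after the listed start of a gene, so that the last bases are transcribed. Those shown matched a RefSeq promoter listed under the same symbol over all 300 bases. They are Morc2b and Spata4, the only such windows among the largest rises, Piwil1 as a PIWI gene that rose, and Aqp12 and Krt18 from the 5 such windows among the largest falls, 1 without and 1 with the core described next. They were chosen as examples after the windows had been read. The core to which MYB proteins are known to bind, CAACNG or TAACNG on either strand, is in capitals.
Morc2b: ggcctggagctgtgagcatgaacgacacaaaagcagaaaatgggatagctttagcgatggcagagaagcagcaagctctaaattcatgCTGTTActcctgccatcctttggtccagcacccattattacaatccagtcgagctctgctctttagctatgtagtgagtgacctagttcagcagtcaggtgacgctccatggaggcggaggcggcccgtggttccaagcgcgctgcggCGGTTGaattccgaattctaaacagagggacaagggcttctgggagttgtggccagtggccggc
Spata4: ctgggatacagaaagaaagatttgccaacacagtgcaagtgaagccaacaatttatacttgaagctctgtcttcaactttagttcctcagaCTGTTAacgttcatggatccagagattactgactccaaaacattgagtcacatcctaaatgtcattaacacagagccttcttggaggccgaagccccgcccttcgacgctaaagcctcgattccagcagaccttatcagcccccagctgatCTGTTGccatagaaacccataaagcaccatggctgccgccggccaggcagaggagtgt
Piwil1: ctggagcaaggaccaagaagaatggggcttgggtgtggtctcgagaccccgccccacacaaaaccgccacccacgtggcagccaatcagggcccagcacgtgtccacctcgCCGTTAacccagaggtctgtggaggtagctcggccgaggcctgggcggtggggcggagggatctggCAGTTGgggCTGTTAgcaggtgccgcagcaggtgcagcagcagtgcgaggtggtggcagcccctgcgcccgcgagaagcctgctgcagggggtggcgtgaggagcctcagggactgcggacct
Aqp12: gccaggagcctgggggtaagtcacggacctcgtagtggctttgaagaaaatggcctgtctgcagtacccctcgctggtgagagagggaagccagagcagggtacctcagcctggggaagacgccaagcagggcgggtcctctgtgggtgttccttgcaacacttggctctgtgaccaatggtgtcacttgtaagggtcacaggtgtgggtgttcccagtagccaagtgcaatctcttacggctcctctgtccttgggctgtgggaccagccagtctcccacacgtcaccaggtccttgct
Krt18: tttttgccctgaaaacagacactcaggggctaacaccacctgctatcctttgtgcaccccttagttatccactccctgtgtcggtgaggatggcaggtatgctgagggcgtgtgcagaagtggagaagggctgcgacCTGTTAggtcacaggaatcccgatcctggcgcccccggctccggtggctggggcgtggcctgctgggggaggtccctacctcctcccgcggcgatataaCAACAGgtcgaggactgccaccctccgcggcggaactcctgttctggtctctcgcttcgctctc
The Morc2b window (chr17:33276579-33276878, minus strand) held 2 cores, that of Spata4 (chr8:55685884-55686183, plus strand) 2, that of Piwil1 (chr5:129241871-129242170, plus strand) 3, that of Aqp12 (chr1:94902661-94902960, plus strand) none and that of Krt18 (chr15:101858397-101858696, plus strand) 2. Of the windows read, 12 of 13 from the largest rises and 5 of 14 from the largest falls held a core, but only 2 and 5 of them matched a RefSeq promoter over all bases, of which 2 and 2 held one. In Spata4 the core nearest the start lies 8 bases before it and runs into GTTGCCA, the core of sites for RFX factors. Over all genes tested, 45.8% of windows held a MYB core. Of the genes at least 2-fold higher 57.4% did, and of those at least 2-fold lower 43.9% did. GTTGCCA on either strand was in 3.83% of all windows, in 7.28% of those of genes at least 2-fold higher and in 2.5% of those of genes at least 2-fold lower. A MYB core that reads as CNGTTG on the other strand shares its GTTG with GTTGCCA, and CAACTG is also an E-box of the form CANNTG.

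Of the other letters searched, also on either strand, TGACG, a part of the site bound by CREM, was in 28.8% of all windows, in 24.1% of those of genes at least 2-fold higher and in 126 of the 681 of genes at least 2-fold lower, and TGACGTCA, which contains it, was in 2.93%, 2.2% and 1.17%. For CCAAT the shares were 37.8%, 39.1% and 34.9%. For AGATAA, to which GATA factors bind, they were 7.15%, 7.71% and 8.96%, and for CAAGGTCA, of steroidogenic factors, 1.18%, 1.35% and 1.62%. CACGTG was in 9.57%, 8.81% and 6.61%, and TTCCCGCC, of E2F factors, in 3.9%, 4.66% and 2.94%. These shares are descriptions of the letters in the windows and were given no test.

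Genes of the X chromosome, which is silenced in pachytene spermatocytes, leaned downward. Of 613 X-linked genes tested 23.5% rose and 44.4% fell, with a median log2 change of -0.17, whereas of 14773 autosomal genes 29.9% rose and 28.6% fell, with a median of 0.01. Over the 9 pairs of a P14.5 and a P10.5 library the X median ran from -0.22 to -0.12. Of the autosomes, chromosomes 18 and 13 had the lowest medians, at -0.13 and -0.09. The share of X-linked genes at least 2-fold higher, 8.81%, stood beside 7.62% of autosomal genes, and the share at least 2-fold lower, 7.67%, beside 4.29%. Chromosome 18 had a larger share at least 2-fold lower, 10.9%, and 24% of its genes rose and 39.1% fell.

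X-linked germ cell genes still rose in 7 of 10 cases, beside 23.5% of all X-linked genes tested, with a median of 0.45. Tex16 was at 5.72, 6.04 and 5.08 RPKM at P10.5 and at 12.7, 11.5 and 12.3 RPKM at P14.5, and Tex11, which promotes recombination, rose from 25.7 ± 0.575 to 34.3 ± 2.53 RPKM (SD, n = 3 each). Fthl17 fell by 0.89 (SE 0.31), a call lost with DESeq2 and without the Morc1+/+ library, P10.5 Morc1tg/+ replicate 3 or P14.5 replicate 1 or 3 (edgeR adjusted p from 0.082 to 0.12). Outside that list, the largest X-linked rise was that of Gm648, from 0.203 to 0.265 RPKM to 3.69 to 8.37 RPKM, and Gja6, a connexin gene, went from 0.573 to 1.08 RPKM to 10.6 to 14.3 RPKM. The largest X-linked falls included Heph, a copper oxidase of iron transport, from 10.4 ± 1.20 to 2.52 ± 0.438 RPKM (SD, n = 3 each), and Agtr2, the type 2 angiotensin receptor, which fell 3.77-fold.

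Sorted germ cells gave a readout from libraries that the age comparison did not use. They were taken at P10.5 from Morc1tg/+ mice as EPCAM-high, MHC class I-negative cells of low side scatter (4 libraries), and their RPKM was divided by that of the 2 preliminary whole testis libraries of P10.5, after 0.1 was added to both. The labels do not say whether the preliminary libraries came from other mice, so the ratio may share mice with the P10.5 side of the age comparison. The kits differed, since sorted RNA was depleted of ribosomal RNA and amplified, so the size of a ratio also holds the difference between kits, and genes were set only against other genes measured the same way. A mean of 1 RPKM or more was asked for in the sorted or the preliminary libraries, both of P10.5, so genes near absent at P10.5 dropped out. Of the 1181 genes at least 2-fold higher at P14.5, 552 met this limit. Of these, 32.6% were over 2-fold higher in germ cells, against 6.57% of all 12748 genes, and 19.7% were over 2-fold lower. Of the 681 genes at least 2-fold lower at P14.5, 460 met the limit. Of these, 87.6% were over 2-fold lower in germ cells, against 44.8% of all, and 3.04% were over 2-fold higher. The median log2 ratio of germ cells over testis was 0.44 for the first set and -3.19 for the second.

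**Figure D3:**
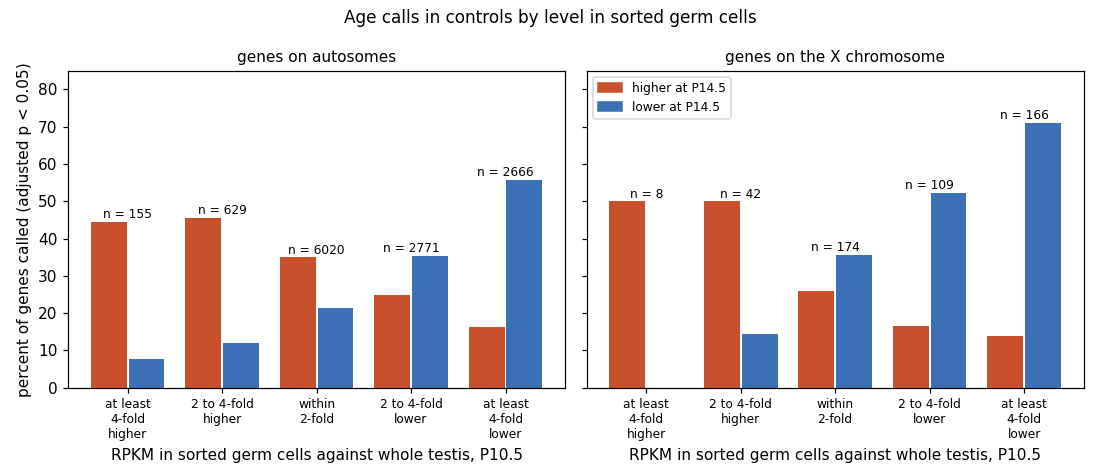
Percent of genes called higher (red) or lower (blue) at P14.5, on the vertical axis, by the RPKM of the gene in sorted P10.5 germ cells against P10.5 whole testis, for autosomes on the left and the X chromosome on the right, with the number of genes above each pair of bars. On autosomes the blue share goes from 7.74% among genes at least 4-fold higher in germ cells to 55.7% among genes at least 4-fold lower, and on the X chromosome from 0 of 8 genes to 71.1%.

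The shares of genes called were also taken by chromosome. Among genes 2 to 4-fold higher in germ cells, 45.6% of 629 autosomal and 50% of 42 X-linked genes rose, and 12.1% and 14.3% fell. Among genes within 2-fold, 35% of 6020 autosomal genes rose and 21.5% fell, whereas 25.9% of 174 X-linked genes rose and 35.6% fell. Among those at least 4-fold lower in germ cells 55.7% of 2666 autosomal and 71.1% of 166 X-linked genes fell. The split was chosen after the data had been seen and its differences were not tested.

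The age change of controls was set beside that of Morc1tg/tg testis, in which germ cells fail in meiosis, over 3 libraries at each age. Over 12 libraries, edgeR's interaction of age and genotype was below 0 at an adjusted p under 0.05 in 1054 of 15657 genes (6.73%). It was above 0 at that threshold in 233 (1.49%). A value below 0 means less of a rise or more of a fall in Morc1tg/tg. Of 4563 genes that rose in controls, 990 had a called interaction below 0 and 26 above 0. Of 4493 genes that fell, 156 had one above 0 and 7 below 0. Leaving out 1 library at a time gave 620 to 1330 genes called below 0 and 114 to 474 called above. The control libraries are the same in both comparisons, so the values are given side by side. In Morc1tg/tg alone, 3007 of 15163 genes (19.8%) rose and 3205 (21.1%) fell.

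By list, beside 6.73% of all genes tested, the interaction was called below 0 in 13 of 21 pachytene genes, 14 of 25 axoneme genes, 12 of 23 piRNA pathway genes, 7 of 13 transcription regulators, 8 of 24 recombination genes and 6 of 17 axis genes. Ptchd3, a gene of male germ cells, was at 9.32, 4.68 and 12.7 RPKM in P14.5 controls and at a mean of 0.158 RPKM in P14.5 Morc1tg/tg testis, after 0.0762 and 0.135 RPKM at P10.5. Piwil1 had a mean of 21.2 ± 9.15 RPKM (SD, n = 3) in P14.5 controls and 1.36 RPKM in P14.5 Morc1tg/tg, with an interaction of -3.70 and an adjusted p of 3.63e-04. Hspa2 stood at 106 ± 26.9 and 24.5 RPKM in the same groups, and Ldhc at 44.5 ± 23.6 and 0.589 RPKM (SD, n = 3 for the controls). Axis genes rose in Morc1tg/tg as well, all 17 of 17, though Sycp3 reached a mean of 32.1 RPKM there against 142 RPKM in controls.

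Of 12 genes of differentiating spermatogonia none had a called interaction below 0 and 5 had one above 0, beside 1.49% of all genes tested. They were Stra8, Sohlh1, Dmrtb1, Dmrt1 and Crabp1. Stra8 went from a mean of 11.9 to 41.6 RPKM in Morc1tg/tg and from 33.2 to 65.2 RPKM in controls, an interaction of 0.81 with an adjusted p of 0.00904, so it started lower in Morc1tg/tg and remained lower. Among meiotic genes Prdm9 and Rec8 also had called interactions above 0, of 0.82 and 0.64, whereas Spo11, Hormad1, Mnd1 and Sycp2 had called interactions below 0, of -1.78, -1.15, -1.08 and -1.03. No gene of stroma, steroid synthesis, macrophages, endothelium or peritubular muscle had a called interaction, and of 19 Sertoli genes 1 had, which does not show that their age changes were alike. Of the 12 macrophage genes 9 rose in controls and 1 in Morc1tg/tg, beside 29.6% and 19.8% of all genes tested, with a median interaction of -0.33. The number in controls was smaller without P10.5 Morc1tg/+ replicate 2, as given above.

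**Figure D4:**
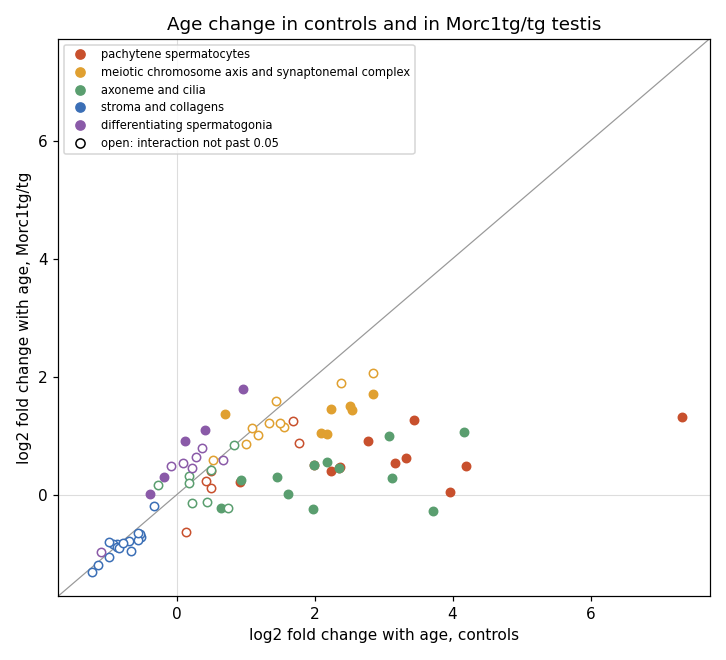
Fitted log2 fold change from P10.5 to P14.5 in controls (horizontal axis) against that in Morc1tg/tg testis (vertical axis) for 83 genes of 5 lists, each fitted within its genotype, with the line of equal change in grey and filled points where the interaction had an adjusted p under 0.05. Only genes that passed the filter on low counts in each genotype alone are shown, so 18 of the 21 pachytene and 20 of the 25 axoneme genes tested for the interaction appear. The filled pachytene and axoneme genes lie below the line, stroma genes lie along it at the lower left, and the filled genes of differentiating spermatogonia lie above it.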

How the data were processed

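RNA-Seq of whole testis was compared between 3 control libraries of P10.5 and 3 of P14.5, 1 mouse each, so that p-values measure the spread between mice. The members and gene lists were chosen with earlier results of these data known. Per the labels, poly(A) RNA was made into libraries with the TruSeq v2 kit, which does not record strand, so reads of a gene and of an overlapping antisense gene cannot be told apart. The authors trimmed reads to 50 bp, kept those with 1 place in mm9 and counted them on genes with HTSeq, and these raw counts were deposited with RPKM values, which the authors made by dividing counts by exon length and mapped reads. Reads shared by near-identical paralogs are lost by this. Bowtie is named in the submitters' processing notes, with no version. Depth was 23529706 to 28750656 reads on genes.

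Of 26385 genes, 15395 passed edgeR's filterByExpr (R 4.3.3, edgeR 4.0.16). They were fitted with TMM factors and tested with glmQLFTest, without covariates, at a Benjamini-Hochberg adjusted p under 0.05. The authors had tested genes with DESeq. The interaction of age and genotype used 12 libraries. Named genes were the members of 29 lists and the 15 largest rises and 15 largest falls with no overlap between the ages and a mean of at least 1 RPKM in the higher group. For the interaction they were the 5 largest in each direction whose P14.5 values did not overlap between the genotypes. Of 400 list symbols 395 were in the files, 7 of them under older names. The symbol 4930506M07Rik was dropped because it is another gene than the one meant. A group with no read was given a floor of 3 reads over the group, and ratios of 1 to 3 reads an exact 95% interval, both for counting error only. Alternatives were other scalings and filters, DESeq2 1.42.0, limma 3.58.1 on log2(RPKM + 1) and log2(RPKM + 0.1), a test against a 2-fold change, the preliminary libraries, and each library left out. The fits were tested on simulated data. Sorted germ cell RPKM and promoter letters were described without a test. Other samples of the series and repeat elements were not analysed here. Replicate numbers were not taken to pair the mice of the ages, as correlations of same-numbered deviations between P10.5 and P14.5 were 0.05, -0.03 and 0.01. Pairing between the genotypes of an age was not checked.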

Additional observations from a re-analysis of the deposited data

Results flagged for a closer look

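The age change from P10.5 to P14.5 differed between Morc1tg/tg and control testis, by a test of the interaction, in the counts and genes given here. The log2 age change of Morc1tg/tg minus that of controls passed an adjusted p of 0.05 in edgeR's test with a value below 0 in 1054 genes and above 0 in 233, of which 156 fell in controls. It was -13.1 for 1700006A11Rik, -8.84 for 4833427G06Rik, -8.72 for 4930463O16Rik, -7.57 for Odf4, a gene of the sperm tail, and -6.66 for Ptchd3. 1700006A11Rik and 4833427G06Rik had no read in the P10.5 controls and 4930463O16Rik and Odf4 at most 3, so the sizes of these fitted values depend on the prior count and are no bounds. Mean levels at P14.5 in controls and Morc1tg/tg were 8.89 and 0.0109 RPKM for 1700006A11Rik, 1.88 and 0.0772 RPKM for 4833427G06Rik, 2.17 and 0.00561 RPKM for 4930463O16Rik and 4.34 and 0.0423 RPKM for Odf4.

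Among differences above 0 it was 2.96 for Ky, 1.57 for Shisa6, 1.5 for Pde7b, 1.32 for Lpcat2 and 1.31 for A830039N20Rik. Ky fell in controls from a mean of 2.77 to 0.146 RPKM and in Morc1tg/tg from 4.97 to 2.09 RPKM. Shisa6 fell from 4.69 to 0.765 RPKM and from 4.50 to 2.21 RPKM. Lpcat2, an enzyme of phospholipid synthesis, fell from 8.44 to 0.883 RPKM and from 10.4 to 2.79 RPKM. Pde7b, a cyclic AMP phosphodiesterase, was at 0.933 and then 0.777 RPKM in controls and at 0.64 and then 1.51 RPKM in Morc1tg/tg. A830039N20Rik was at 1.94 and then 0.938 RPKM in controls and at 1.87 and then 2.23 RPKM in Morc1tg/tg. Some calls were lost when a single library was left out, that of 1700006A11Rik without any of 4 libraries (edgeR adjusted p from 0.0548 to 0.18), that of Odf4 without P10.5 Morc1tg/tg replicate 3 (0.152), that of Lpcat2 without any of 9 libraries (0.0516 to 0.105) and that of A830039N20Rik without any of 9 libraries (0.054 to 0.111). The call of A830039N20Rik was also lost in an edgeR fit that blocked on replicate number (adjusted p = 0.0543).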

How the results depend on the processing

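Over all alternatives run for them, counts higher and lower kept within 1.5 times of 4564 and 4494, and without 1 library they ran from 3941 to 4574 and from 3927 to 4358. For genes at least 2-fold higher and lower, left-out libraries gave 1121 to 1352 and 632 to 783. A test against a 2-fold change gave 687 and 270, as it asks for more than a fitted 2-fold, and limma on log2(RPKM + 1), whose pseudocount shrinks low genes, 511 and 216. The median of X-linked genes without 1 library was -0.18 to -0.15. The count of interactions called below 0 (1054) was 620 to 1330 without 1 library. It was 620 without P14.5 Morc1tg/+ replicate 3, 658 without P10.5 Morc1tg/+ replicate 3 and 700 without P10.5 Morc1tg/tg replicate 1 (the cause was not tested). The count called above 0 (233) was 500 with DESeq2, 502 with no filter beyond 1 read and 114 to 474 without 1 library. It was 145 without the Morc1+/+ library, 114 without P10.5 Morc1tg/tg replicate 3, 416 and 152 without P14.5 Morc1tg/+ replicates 2 and 3, and 474 without P14.5 Morc1tg/tg replicate 1. The log2 change of Morc1 (0.10) was 0.36 and past the threshold without the Morc1+/+ library and turned to -0.021 and -0.013 without P10.5 Morc1tg/+ replicates 2 and 3. In a fit that blocked on replicate number, 4489 and 4395 genes were higher and lower, 1175 and 682 of them at least 2-fold. Interactions were called below and above 0 in 998 and 222 with that block, but the numbers were not shown to pair the mice. Direction and call were followed for 291 genes, which were the list members called in the main fit, the ranked rises and falls, Morc1 and Tyr. Of these, 263 kept both under every alternative to the age fit in which they were tested. List members not called in the main fit were not followed. Genes of under a few reads at P10.5 have only bounds or wide intervals at this depth.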
